A study of Mus musculus with 8 samples.

Results

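Endothelial cells of the prefrontal cortex (PFC) were compared with endothelial cells of the striatum in adult mice. The members were the single cells that the deposited cell tables annotate as endothelial in either tissue, 3560 of 23687 annotated cells, of which 1562 came from 4 PFC libraries and 1998 from 4 striatum libraries. Unique molecular identifiers (UMIs, each standing for 1 captured RNA molecule) were summed over these cells in each library, so the library and not the cell was the replicate.

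Endothelial cells line all blood vessels. In the brain they are joined by tight junctions and carry out little vesicular transport, so that glucose, amino acids, lactate, hormones and metals cross this blood-brain barrier through carriers in the endothelial membrane, while efflux pumps return drugs and other lipid-soluble compounds to the blood. Pericytes and smooth muscle cells, together called mural cells, sit on the same vessels and are often captured with endothelial cells when tissue is dissociated.

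The data are single-cell RNA sequencing libraries made on the 10x Chromium platform. Each tissue was represented by 2 wild-type (WT) and 2 Setd1a+/- libraries, and each library held the pooled tissue of 2 male C57BL/6N mice, which the labels give as 8 to 10 weeks old, an age that differs from the one in the study's methods. Setd1a+/- mice carry a CRISPR-Cas9 frameshift deletion in exon 15 of 1 copy of Setd1a, a histone methyltransferase, ahead of the part that encodes its SET domain, and all cells of the animal carry it. For the subcortical tissue the labels write NAc (nucleus accumbens) where the series' design text has dorsal and ventral striatum, and it is called striatum here. Tissue was freed with papain, for a longer time in the striatum per the study's methods, and each library was 1 preparation of 1 tissue, so tissue cannot be told apart from dissection, digestion and library preparation. Levels by library are given as CPM, the UMIs of a gene divided by all UMIs of the endothelial cells of that library and multiplied by 1000000, always in the order WT replicate 1, WT replicate 2, Setd1a+/- replicate 1 and Setd1a+/- replicate 2, first for PFC and then for striatum. A log2 fold change (log2 FC) is that of PFC over striatum, with its standard error (SE), so that a value below 0 means a higher level in the striatum.

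The PFC libraries held 599, 285, 521 and 157 endothelial cells and the striatum libraries 607, 521, 632 and 238. Their summed UMIs ran from 414592 to 1996382 per library, and the median endothelial cell had 2756, 2197, 2146 and 2124 UMIs in PFC and 2327, 2431, 2592 and 2082.5 UMIs in striatum. The tissue means of these medians differed by -52.4 UMIs (two-sided exact permutation test over libraries, p = 0.771, where 0.0286 is the smallest p that 4 against 4 libraries allow). Endothelial cells made up 22.8, 10.6, 23.8 and 10.4% of the annotated cells in PFC and 13.9, 12.9, 16.7 and 9.54% in striatum. In both tissues the replicate 2 libraries had the lower shares. The mean share was 16.9% ± 7.41 (SD, n = 4) in PFC and 13.3% ± 2.94 (SD, n = 4) in striatum, a difference of 3.68 percentage points that did not exceed the spread between libraries (exact permutation test, two-sided p = 0.371), and among non-neuronal cells alone the difference was -6.89 points (p = 0.4). Of the endothelial barcodes, 4 pairs were shared between libraries, against 313 pairs over all annotated cells.

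The PFC libraries of replicate 1 stood apart from those of replicate 2. Of 9709 genes tested, 298 had both replicate 1 libraries at or below 0.5 times the lower replicate 2 library. Another 80 had both at 2 or more times the higher replicate 2 library. Bsg, which encodes the membrane glycoprotein basigin and had the highest mean CPM of the endothelial identity list, was at 2879, 11584, 1947 and 10994 CPM in PFC and 12658, 11448, 11094 and 9154 CPM in striatum. Gapdh, an enzyme of glycolysis, was at 18.5, 178, 14.3 and 174 CPM in PFC and 341, 314, 301 and 317 CPM in striatum. For both genes the replicate 1 libraries of PFC were low and its replicate 2 libraries were nearer to the striatum. The main results are therefore also given without either pair of PFC libraries.

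The labelled cell type was checked against a list of 32 endothelial identity genes. Their summed level was 33875 to 40045 CPM in PFC and 30806 to 41190 CPM in striatum, and the ranges overlapped. By gene, 22 of the 32 had a log2 FC above 0. All PFC libraries were above all striatum libraries for 8 genes (6.09% over all genes) and all below for 0 (7.05%). Cldn5, the main claudin of the tight junctions between these cells, had at least 1 UMI in 84.0 to 97.6% of the cells of a library. Its level was 1914, 2169, 1278 and 1602 CPM in PFC and 3098, 2301, 2732 and 1102 CPM in striatum, with a log2 FC of -0.43 (SE 0.24, FDR = 0.337). Flt1, a receptor for vascular endothelial growth factor, had a log2 FC of 0.28 (SE 0.16, FDR = 0.352), the adhesion molecule Pecam1 a log2 FC of 0.10 (SE 0.16, FDR = 0.771), and the surface antigen Ly6c1 a log2 FC of -0.19 (SE 0.20, FDR = 0.635). Cdh5, the cadherin of endothelial junctions, was at 467, 380, 396 and 374 CPM in PFC and 271, 282, 294 and 304 CPM in striatum. Its groups did not overlap, but it missed the threshold (log2 FC 0.47, SE 0.14, FDR = 0.068).

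The same barcodes also held mural RNA. The mural list summed to 7095 to 7738 CPM in PFC and 7106 to 8139 CPM in striatum, led by the pericyte gene Rgs5 at 2899, 2636, 3004 and 2501 CPM in PFC and 2057, 2167, 2388 and 2404 CPM in striatum. None of the 17 mural genes tested passed the threshold in either direction, against 4.59% of all genes tested. Barcodes with at least 0.5% of their UMIs from the mural list were 42.7 to 57.8% of the endothelial barcodes in PFC and 46.4 to 58.1% in striatum, and the tissue means of 50.9 and 54.0% were within the spread (exact permutation test, two-sided p = 0.429). Between 1.68 and 8.28% of the barcodes of a library had more mural than identity UMIs. The main counts are therefore given separately for 1702 mural-poor barcodes, under 0.5%, and 1858 mural-rich barcodes.

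**Figure D1:**
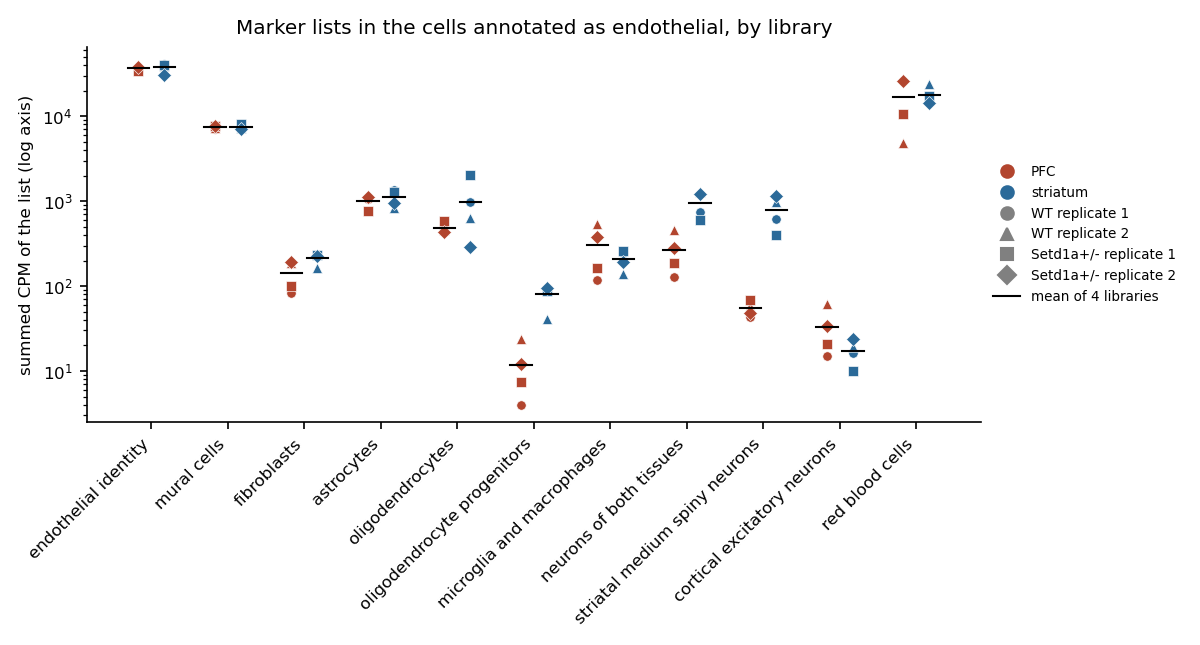
Summed CPM (log axis) of marker lists in the cells annotated as endothelial, with 1 symbol per library (red, PFC; blue, striatum; the shape gives genotype and replicate) and a black line at the mean of 4 libraries. Identity and mural lists lie at the same height in both tissues, while the lists of medium spiny neurons, of neurons of both tissues and of oligodendrocyte progenitors lie higher in every striatum library than in any PFC library.

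A gene counted as called where its adjusted p (FDR) was under 0.05 and its FC was over 2. Of 9709 genes tested, 33 (0.34%) were higher in PFC endothelial cells and 413 (4.25%) were higher in striatal endothelial cells, 4.59% in either direction. At an FC above 1.5, the counts were 114 (1.17%) and 474 (4.88%). Without regard to a test, 591 genes (6.09%) had all 4 PFC libraries above all 4 striatum libraries and 684 (7.05%) had them all below. The 33 genes had a median log2 FC of 1.30 and the 413 genes a median of -2.17, against 0.01 over all genes tested. The counts rest on single libraries. Leaving out 1 PFC library gave 15 (WT replicate 1), 61 (WT replicate 2) and 50 (Setd1a+/- replicate 2) genes higher in PFC, and leaving out striatum WT replicate 1 or 2 gave 16 and 15. In the other direction, leaving out PFC WT replicate 1, PFC WT replicate 2 or striatum WT replicate 2 gave 199, 727 and 230 genes. Without both PFC libraries of replicate 1 there were 18 and 66 calls, of which 7 and 58 were among the 33 and 413, and without both of replicate 2 there were 93 and 1095, of which 31 and 400 were. With a replicate term within each tissue (replicate block) 53 and 607 genes were called.

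Free RNA, which is RNA from broken cells that enters every droplet, was read in each library from the barcodes with 1 to 50 UMIs. For 4 lists of genes that endothelial cells should not express, the ratio of the endothelial level to the level in these near-empty barcodes was taken as an estimate of how much free RNA they held. The ratio for neuronal genes was 0.0183, 0.0509, 0.0254 and 0.0334 in PFC and 0.107, 0.204, 0.0999 and 0.185 in striatum, so every striatum library lay above every PFC library. The oligodendrocyte ratios were 0.0619 to 0.136 in PFC and 0.104 to 0.254 in striatum, and those of microglia 0.0464 to 0.309 and 0.0914 to 0.198. The astrocyte ratios were the largest of the 4 in every library, at 0.664 to 0.953 in PFC and 1.12 to 1.98 in striatum, but that list is led by S1pr1, which endothelial cells also express, at 468 to 760 CPM. A gene was marked as prone to free RNA where the largest ratio times its level in the near-empty barcodes reached 20% of its endothelial level in the higher tissue. By this measure 86.3% of all genes tested were prone, and 42.4% with the astrocyte list left out of the estimate.

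Of the 413 genes called higher in the striatum, 405 were prone and 8 were not, and with the astrocyte list left out 389 were prone and 24 were not. Of the 33 called higher in PFC, 14 were prone and 19 were not, and without the astrocyte list 1 was prone, Cck, a neuropeptide gene of cortical neurons that was chosen for mention after its value was seen. Of the 413 genes (4.25% of all genes tested), 19 were in a list of neurons or of medium spiny neurons. All 10 tested members of the list of striatal medium spiny neurons, the principal neurons of that tissue, were called higher in the striatum, as were 9 of 13 tested members of the list of neurons of both tissues. A gene could pass the count filter through 1 tissue alone, so members near 0 in PFC were tested through their striatum libraries. The 10 of 10, and the median of these members below, were thus partly set by the filter, which also applied to the other lists. Tested or not, all 14 members of the medium spiny neuron list were lower in every PFC library than in any striatum library. The medium spiny neuron list summed to 43.6, 58.3, 69.1 and 48.2 CPM in PFC and 625, 989, 399 and 1164 CPM in striatum. Tac1, which encodes the substance P precursor, had 0 UMIs in all 4 PFC libraries and 115, 251, 61.7 and 359 CPM in striatum. Against a floor of 3 UMIs over the 4 PFC libraries it was at least 294-fold higher in the striatum, and with the 2 tested members at 0 in PFC (Tac1 and Pdyn) set to such a bound the median log2 FC of the 10 tested members was -5.71. Penk, the enkephalin precursor gene, was at 0, 1.33, 0 and 2.41 CPM in PFC and 190, 197, 92.0 and 191 CPM in striatum. The other neuronal list summed to 127 to 460 CPM in PFC and 593 to 1284 CPM in striatum, led by Snap25, a synaptic vesicle fusion protein, at 35.1, 129, 67.6 and 89.2 CPM and 135, 251, 101 and 328 CPM, with overlap. The 413 genes as a whole had a median log2 ratio of PFC to striatum of -0.55 in the near-empty barcodes, against -2.17 in endothelial cells. The 33 genes called toward PFC had a median of 1.24 in the near-empty barcodes, close to their 1.30 in endothelial cells. No member of the list of cortical excitatory neurons had enough UMIs to be tested, and its sum was 15.0 to 61.0 CPM in PFC and 9.92 to 23.7 CPM in striatum, with overlap. Of its 12 members 5 were higher in every PFC library than in any striatum library, among them Slc17a7, a vesicular glutamate transporter, at 2.00, 17.2, 0.75 and 12.1 CPM in PFC and 0.60, 0, 0.55 and 0 CPM in striatum, and Nrn1 at 3.76 to 9.28 and 0 to 0.55 CPM, both named after their values were seen. Lamp5, the member of highest mean level, was the single one lower in every PFC library, at 0 to 1.33 and 4.96 to 17.8 CPM.

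Other non-endothelial lists gave fewer calls, to be read against the 4.25% of all genes called in this direction. Of 8 oligodendrocyte genes 4 were called higher in the striatum, with sums of 439 to 586 CPM in PFC and 291 to 2015 CPM in striatum, led by Mal at 215 to 383 CPM in PFC and 144 to 426 CPM in striatum. For astrocytes 3 of 9 were called, all higher in the striatum, with sums of 760 to 1157 CPM in PFC and 841 to 1357 CPM in striatum. Neuroblast genes gave 2 of 3, with sums of 38.6 to 47.7 CPM in PFC and 91.8 to 122 CPM in striatum, led by Cd24a at 19.3 to 35.3 and 25.5 to 57.2 CPM. The fibroblast list, 82.1 to 191 CPM in PFC and 164 to 230 CPM in striatum, gave 2 of 8. Its member of highest CPM, the collagen gene Col1a2, was at 29.6 to 58.3 CPM in PFC and 24.2 to 31.0 CPM in striatum. No gene of the lists for oligodendrocyte progenitors (4.01 to 23.9 CPM in PFC and 40.8 to 95.4 CPM in striatum, led by Pdgfra at 1.503 to 12.1 and 5.92 to 23.7 CPM), microglia (117 to 545 and 139 to 258 CPM), ependymal and choroid plexus cells (139 to 207 and 213 to 269 CPM, led by Rarres2 at 109 to 174 and 177 to 224 CPM) or red blood cells (4865 to 25809 and 14238 to 23954 CPM) was called. Of the progenitor list 1 of 9 members was tested, and of the ependymal list 2 of 10. The hemoglobin gene Hbb-bs was lowest in PFC WT replicate 2, at 2413 CPM, and highest in PFC WT replicate 1, at 15116 CPM.

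The counts of these lists moved with single libraries, in part because more or fewer members could be tested. Oligodendrocyte calls were 8 without striatum Setd1a+/- replicate 2, 7 without PFC WT replicate 2, 2 without PFC WT replicate 1, and 1 without PFC Setd1a+/- replicate 1, striatum WT replicate 1 or 2, or striatum Setd1a+/- replicate 1. Progenitor calls, 0 with all libraries, were 6 of 6 tested without PFC WT replicate 2, 5 of 6 without PFC Setd1a+/- replicate 2, 3 of 6 without PFC Setd1a+/- replicate 1, 2 without PFC WT replicate 1, striatum WT replicate 2 or striatum Setd1a+/- replicate 2, and 1 without striatum Setd1a+/- replicate 1. Astrocyte calls were 0 without PFC Setd1a+/- replicate 1 or striatum WT replicate 1, 1 without striatum Setd1a+/- replicate 1, and otherwise 2 or 3. Fibroblast calls were 5 without PFC WT replicate 2, 3 without PFC Setd1a+/- replicate 2 and 1 without PFC WT replicate 1. Neuroblast calls were 1 without PFC WT replicate 1 or striatum WT replicate 2, and 3 without either PFC library of replicate 2. The calls of the list of neurons of both tissues were 5 without PFC WT replicate 1, 6 without PFC Setd1a+/- replicate 1, striatum WT replicate 2 or striatum Setd1a+/- replicate 2, and 7 to 13 otherwise, and those of medium spiny neurons 8 to 13.

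**Figure D2:**
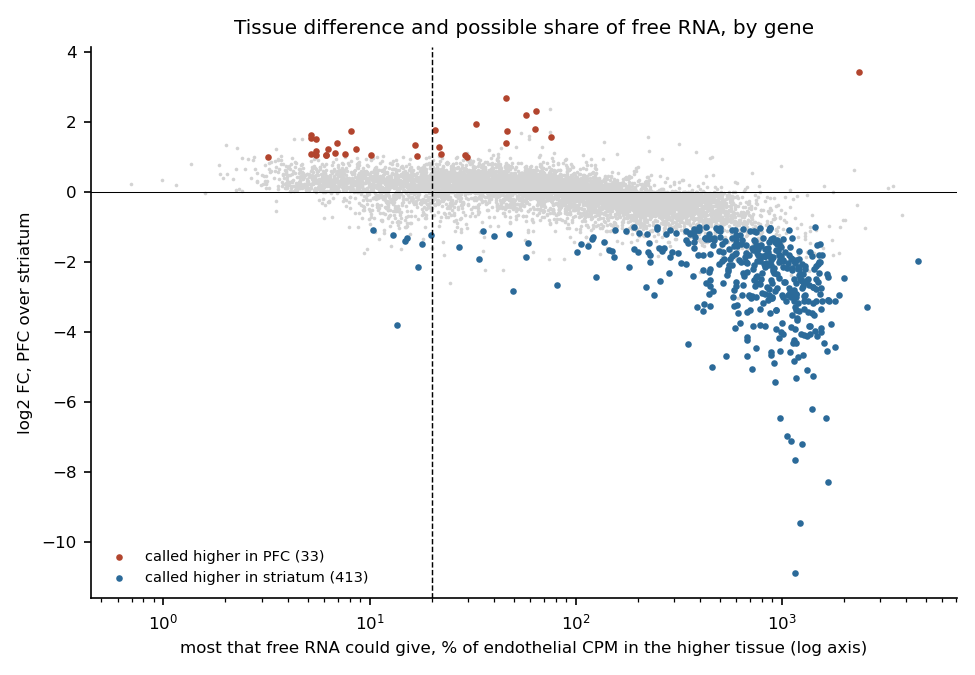
Each point is a gene tested in endothelial cells: the horizontal axis (log) gives the most that free RNA could supply, as a percentage of the endothelial CPM in the higher tissue, and the vertical axis gives the log2 FC of PFC over striatum. Of the genes called higher in striatum (blue), 405 of 413 lie right of the dashed line at 20%, while 19 of 33 called higher in PFC (red) lie left of it. The ratios used were higher in striatum than in PFC, so genes higher in striatum pass the line more readily by construction.

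When the largest estimate was subtracted from the summed counts, 3653 genes could be tested, among them 24 of the 33 and 16 of the 413 called genes, the median log2 FC of all genes moved to 0.45, and the calls were 291 higher in PFC and 24 higher in striatum. With the estimate that leaves out the astrocyte list, 8561 genes could be tested, among them 32 of the 33 and 77 of the 413, and the calls were 0 and 1 (350 and 423 genes at an unadjusted p under 0.05), the single call being Apoe, the gene of a lipid carrier made by astrocytes and mural cells. Apoe was at 323, 325, 179 and 251 CPM in PFC and 965, 797, 662 and 510 CPM in striatum, with a log2 FC of -1.48 (SE 0.17, FDR = 0.000588) and of -1.70 (FDR = 0.0358) after that subtraction. The first estimate takes more from striatum than from PFC by its construction, since the astrocyte ratios are higher there. Most of the 413 genes were left untested by either subtraction, so neither gives a split to set beside that of the unsubtracted counts. The part of free RNA in single genes below was not tested beyond these estimates.

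Transporters of the blood-brain barrier were higher in PFC endothelial cells for 10 of 31 members tested at an FC above 1.5, and for 3 of them at an FC above 2. None was called higher in the striatum at either cutoff. The share over all genes at an FC above 1.5 in this direction was 1.17%. The 31 genes had a median log2 FC of 0.48, 27 lay above 0, and 13 had all PFC libraries above all striatum libraries, against 6.09% of all genes. The list summed to 16170, 14823, 15092 and 15526 CPM in PFC and 10974, 11176, 11104 and 10094 CPM in striatum. Every PFC library was thus above every striatum library, those of replicate 1 and of replicate 2 alike. Only 4 of the 31 genes were prone to free RNA. A lean toward PFC was not confined to transporters. All PFC libraries were above all striatum libraries for 8 of 32 identity, 5 of 24 matrix and 3 of 22 Wnt and Norrin genes tested, and all below for 0 in each list. The medians of these lists were 0.20, 0.21 and 0.32. Among 17 arterial genes 0 had all PFC libraries above and 2 all below.

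The 3 transporters past an FC of 2 carry amino acids, lactate and iron. Slc7a1, the carrier of arginine and lysine (chr5:148327410-148399904 in GRCm38, GENCODE vM21), was at 490, 449, 470 and 480 CPM in PFC and 257, 189, 264 and 164 CPM in striatum. Its groups were far apart, and it was 2.11-fold higher in PFC (log2 FC 1.08, SE 0.17, FDR = 0.00311). Without striatum Setd1a+/- replicate 2 the log2 FC was 0.97, just under the FC cutoff (FDR = 0.00694), and it was called in mural-poor and mural-rich barcodes and without either pair of PFC libraries. Slc16a1, which carries lactate and ketone bodies (chr3:104638668-104658462), was at 312, 329, 383 and 277 CPM in PFC and 117, 146, 116 and 262 CPM in striatum. The highest striatum library, Setd1a+/- replicate 2, reached almost to the lowest of PFC, and the difference was 2.07-fold (log2 FC 1.05, SE 0.23, FDR = 0.0186). Tfrc, the transferrin receptor through which iron enters the brain endothelium (chr16:32608920-32632794), was at 435, 317, 319 and 210 CPM in PFC and 161, 141, 209 and 85.6 CPM in striatum. Its lowest PFC and highest striatum libraries were almost equal, at a difference of 2.06-fold (log2 FC 1.04, SE 0.24, FDR = 0.0253). The calls of these 2 genes were lost with 1 library left out in 5 of 8 cases each. For Slc16a1 these were PFC WT replicate 1 (log2 FC 1.02, FDR = 0.0717), PFC WT replicate 2 (1.00, FDR = 0.0253), striatum WT replicate 1 (0.94, FDR = 0.0872), striatum WT replicate 2 (1.06, FDR = 0.0738) and striatum Setd1a+/- replicate 1 (0.88, FDR = 0.0404). For Tfrc they were PFC WT replicate 1 (0.89, FDR = 0.115), PFC Setd1a+/- replicate 1 (1.02, FDR = 0.0559), striatum WT replicate 1 (1.03, FDR = 0.0913), striatum WT replicate 2 (0.95, FDR = 0.110) and striatum Setd1a+/- replicate 2 (0.90, FDR = 0.0469).

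The 7 further transporters past an FC of 1.5, named after their values were seen, included the iron exporter Slc40a1 (ferroportin) at 531, 460, 524 and 521 CPM in PFC and 230, 303, 215 and 339 CPM in striatum (log2 FC 0.89, SE 0.17, FDR = 0.00834). Slco1a4, a carrier of organic anions and the member of highest level, was at 3574, 3629, 3131 and 4055 CPM in PFC and 1727, 2132, 1854 and 2462 CPM in striatum (log2 FC 0.80, SE 0.17, FDR = 0.0157). For both genes the lowest PFC library lay well above the highest striatum library. The efflux pump Abcb1a (P-glycoprotein) was at 1048, 622, 666 and 642 CPM in PFC and 416, 462, 455 and 473 CPM in striatum, and the pump Abcg2 at 969, 840, 972 and 1153 CPM and 622, 654, 679 and 588 CPM. Their log2 FC were 0.69 (SE 0.18, FDR = 0.0398) and 0.60 (SE 0.15, FDR = 0.0318), again with no overlap. The zinc importers Slc39a8 and Slc39a10 had log2 FC of 0.97 and 0.67, and Slc16a4, of the monocarboxylate carrier family, 0.76. Of these 7, Slc40a1 alone stayed past the FDR with any 1 library left out, and the other 6 missed it without PFC WT replicate 1 and without striatum WT replicate 1 (FDR from 0.0655 for Slco1a4 to 0.236 for Slc39a8 over both). Without striatum WT replicate 2 all of these but Slc16a4 missed it, without striatum Setd1a+/- replicate 1 all but Slco1a4, without striatum Setd1a+/- replicate 2 Slc39a8, Abcb1a and Abcg2, and without PFC Setd1a+/- replicate 1 Slc39a8 and Slc39a10. Without PFC WT replicate 1 the log2 FC changed little for Slco1a4 (0.79, FDR = 0.0655), Abcg2 (0.59, FDR = 0.124) and Slc16a4 (0.71, FDR = 0.0988), and was smaller for Abcb1a (0.48, FDR = 0.155), Slc39a8 (0.79, FDR = 0.236) and Slc39a10 (0.54, FDR = 0.131). The glucose carrier Slc2a1, was at 1269, 1014, 1959 and 1438 CPM in PFC and 1276, 1268, 1563 and 954 CPM in striatum, with overlapping groups and a log2 FC of 0.11 (SE 0.19, FDR = 0.798). Slc7a5, a carrier of large neutral amino acids, had a log2 FC of 0.12 (SE 0.20, FDR = 0.782), and the lowest member, the scaffold gene Slc9a3r2, one of -0.89 (SE 0.30, FDR = 0.114).

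**Figure D3:**
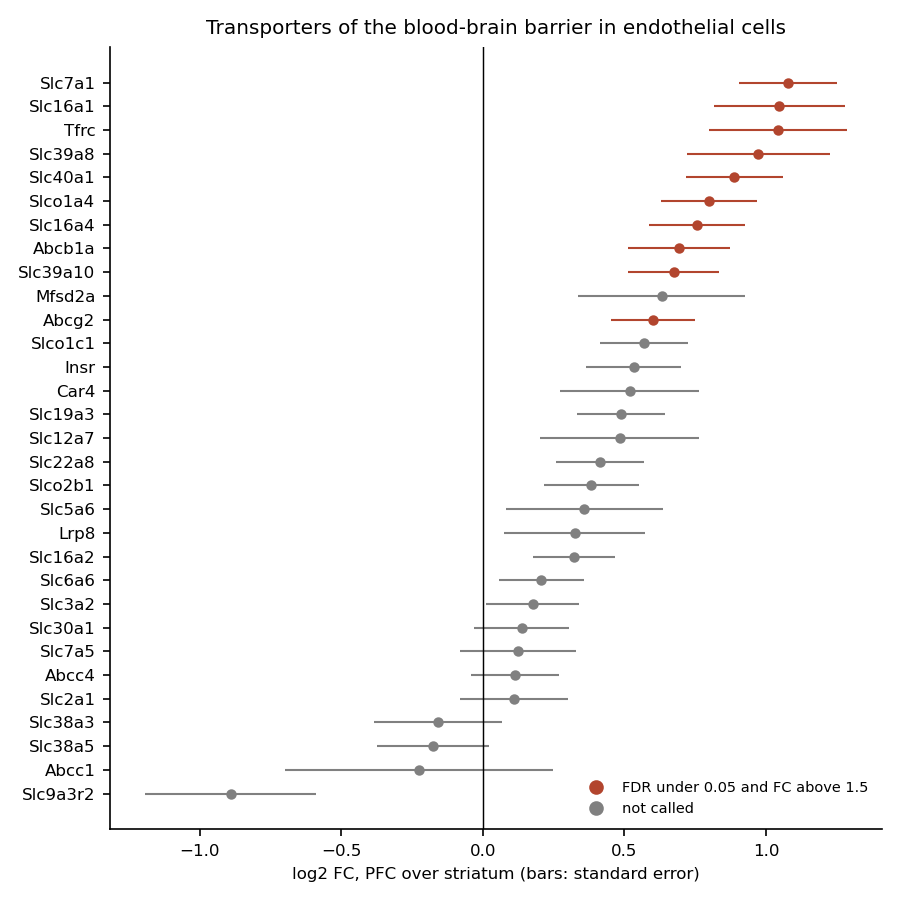
The log2 FC of PFC over striatum for the 31 barrier transporters tested (points) with standard errors (bars); red marks an FDR under 0.05 with an FC above 1.5. The 10 red members lie between 0.60 and 1.08, and 4 members lie below 0.

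The count of 10 transporters depended on single libraries, while the median of the list stayed above 0 with any 1 library left out. It was 2 without PFC WT replicate 1, 2 without striatum WT replicate 1, 3 without striatum WT replicate 2 and 5 without striatum Setd1a+/- replicate 1, and reached 12 without PFC WT replicate 2, while the median log2 FC stayed within 0.38 to 0.53. Without both PFC libraries of replicate 1 it was 2 (median 0.46) and without both of replicate 2 it was 12 (0.44), and it was 3 in WT (0.46) and 0 in Setd1a+/- libraries alone (0.51). It was 11 in mural-poor and 2 in mural-rich barcodes, with medians of 0.56 and 0.35, and 0 under both subtractions of free RNA, with a median of -0.08 where all genes moved to 0.45 and of 0.37 with the astrocyte list left out. Toward the striatum 1 transporter was called at both cutoffs without PFC Setd1a+/- replicate 2 and without both PFC libraries of replicate 2. At an FC above 1.5 alone, 1 was called with a replicate block within each tissue and 1 with no low-count filter.

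The genes of capillary endothelial cells, the narrow exchange vessels, gave 3 calls among 13 tested, all higher in PFC (background 0.34%), and a median log2 FC of 0.52. Of these, Slc16a1 and Tfrc are also barrier transporters. The remaining one, Hmcn1, encodes an extracellular matrix protein (chr1:150562524-150993435) and was at 116, 72.9, 68.4 and 65.1 CPM in PFC and 42.3, 36.2, 33.1 and 31.0 CPM in striatum. Without its highest library, PFC WT replicate 1, the log2 FC was 0.96 (FDR = 0.0235) in place of 1.16 (SE 0.19, FDR = 0.00309). The count of 3 was 0 without PFC WT replicate 1 and 1 without striatum WT replicate 1 or 2, and 0 without both PFC libraries of replicate 1. Arterial genes had a median log2 FC of -0.09, with 1 of 17 called, higher in striatum (4.25% over all genes): Clu, a secreted chaperone that astrocytes also make, which was prone to free RNA. Venous genes had a median of -0.17 and 0 of 12 called.

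Apart from transporters, the largest differences toward PFC among genes not prone to free RNA, with no overlap and at least 50 CPM on average in PFC, were in genes of varied roles. Ndnf, a secreted factor first described in neurons (chr6:65671590-65712326), was at 209, 127, 108 and 104 CPM in PFC and 44.7, 40.8, 43.5 and 45.5 CPM in striatum. The striatum libraries were tightly grouped and all far below PFC, at 3.11-fold (log2 FC 1.63, SE 0.21, FDR = 0.000913). Bche, the gene of butyrylcholinesterase (chr3:73635808-73708415), was at 42.6, 90.1, 45.1 and 50.7 CPM in PFC and 17.5, 19.1, 18.2 and 23.7 CPM in striatum, with PFC WT replicate 2 above the rest (log2 FC 1.51, SE 0.27, FDR = 0.00553). Fam13a, which encodes a protein with a GTPase-activating domain (chr6:58932090-59024549), was at 127, 115, 123 and 74.8 CPM in PFC and 43.5, 51.3, 40.8 and 54.6 CPM in striatum (log2 FC 1.24, SE 0.18, FDR = 0.00159). Ndnf, Bche and Fam13a were called with any 1 library left out, without either pair of PFC libraries and in both mural-poor and mural-rich barcodes.

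Gdap10, a long noncoding RNA (chr12:32821872-32826904), was at 47.6, 46.4, 57.8 and 50.7 CPM in PFC and 22.3, 27.0, 18.7 and 14.6 CPM in striatum (log2 FC 1.22, SE 0.20, FDR = 0.00378). Gbp9, of the interferon-inducible guanylate-binding proteins (chr5:105077630-105139539), was at 75.1, 39.8, 56.3 and 55.5 CPM in PFC and 29.0, 32.9, 21.5 and 23.7 CPM in striatum (log2 FC 1.08, SE 0.22, FDR = 0.0109), and was lost without PFC WT replicate 1 (0.90, FDR = 0.0977) or striatum Setd1a+/- replicate 1 (1.00, FDR = 0.0414). Gdap10, Hmcn1, Gbp9, Slc16a1 and Tfrc were not called with only the replicate 2 pair of PFC. Gdap10 (log2 FC 1.19, FDR = 0.0615) and Slc16a1 (1.02, FDR = 0.113) then kept about the same difference, while it was smaller for Hmcn1 (0.96, FDR = 0.0604), Gbp9 (0.80, FDR = 0.227) and Tfrc (0.80, FDR = 0.206). Over all 33 genes, 20 were called in mural-poor and 8 in mural-rich barcodes. Pseudogenes of ribosomal protein genes made up 5 of the 33, and since they share sequence with their parent genes their counts are uncertain.

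**Figure D4:**
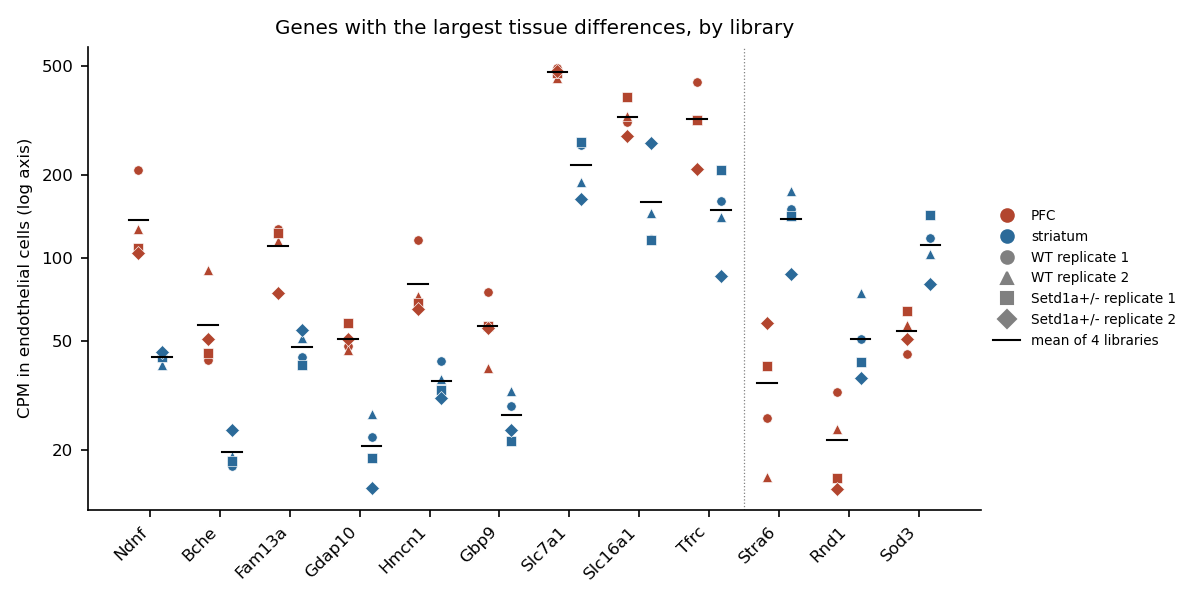
CPM (log axis) in endothelial cells of 12 genes with 1 symbol per library (red, PFC; blue, striatum; the shape gives genotype and replicate) and a black line at the mean of 4 libraries. The 9 genes left of the dotted line are higher in all PFC libraries and the 3 right of it, Stra6, Rnd1 and Sod3, in all striatum libraries.

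Among the genes not prone to free RNA, 3 met the same rule in the striatum. Stra6, the receptor that takes up retinol from its plasma binding protein (chr9:58063788-58153996), was at 26.05, 15.9, 40.6 and 57.9 CPM in PFC and 150, 175, 142 and 87.4 CPM in striatum. All striatum libraries were above all PFC libraries, and the level was 4.42-fold higher (log2 FC -2.15, SE 0.31, FDR = 0.00159). It was called with any 1 library left out, without either pair of PFC libraries, and in mural-poor (log2 FC -2.07) and mural-rich (-2.31) barcodes. Sod3, the extracellular superoxide dismutase (chr5:52363791-52371418), was at 44.6, 57.0, 63.9 and 50.7 CPM in PFC and 118, 103, 143 and 80.1 CPM in striatum (log2 FC -1.10, SE 0.19, FDR = 0.0053). Without PFC WT replicate 1 its log2 FC was -0.99 (FDR = 0.0432) and without striatum Setd1a+/- replicate 1 it was -0.94 (FDR = 0.0204), both under the FC cutoff. Rnd1, a small GTPase of the cytoskeleton (chr15:98663421-98677461), was at 32.6, 23.9, 15.8 and 14.5 CPM in PFC and 50.7, 74.3, 41.9 and 36.4 CPM in striatum (log2 FC -1.23, SE 0.21, FDR = 0.00399). It lay at the edge of the rule, since free RNA could supply up to 19.9% of its level. Without both PFC libraries of replicate 1 neither passed the FDR, though Rnd1 then had a log2 FC of -1.39 (FDR = 0.0522) and Sod3 one of -1.04 (FDR = 0.0902). Rnd1 was called in mural-poor (-1.34) and mural-rich (-1.15) barcodes, while Sod3 was not tested in mural-poor barcodes and was just under the FC cutoff in mural-rich ones (-0.99, FDR = 0.0159).

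The other 5 genes called higher in the striatum and not prone to free RNA were under 50 CPM and were named after their values were seen. Ccl11, the chemokine eotaxin, was at 1.00, 0, 1.502 and 0 CPM in PFC and 10.3, 18.4, 11.6 and 12.7 CPM in striatum (log2 FC -3.81, SE 0.55, FDR = 0.00168). Dcn, the gene of the collagen-binding proteoglycan decorin, was at 10.5, 17.2, 12.0 and 24.1 CPM in PFC and 42.3, 38.2, 34.2 and 43.7 CPM in striatum (log2 FC -1.50, SE 0.27, FDR = 0.0054). Slc6a13, a carrier of GABA and taurine, was at 17.0, 22.5, 16.5 and 21.7 CPM in PFC and 56.2, 32.9, 52.9 and 34.6 CPM in striatum (log2 FC -1.31, SE 0.25, FDR = 0.0087), and lost its call without PFC WT replicate 1 (log2 FC -1.22, FDR = 0.0667). Dcn and Slc6a13 are the 2 called members of the fibroblast list, whose sum was 82.1 to 191 CPM in PFC and 164 to 230 CPM in striatum, and the part of fibroblast RNA in these genes was not tested. Saa2, a serum amyloid protein, and C1qtnf9, a secreted protein of the C1q and TNF family, had log2 FC of -1.23 (FDR = 0.0292) and -1.40 (FDR = 0.0378), and both lost the call without PFC WT replicate 1 (FDR = 0.146 for Saa2 and 0.174 for C1qtnf9), PFC Setd1a+/- replicate 1 (0.112 and 0.146), striatum WT replicate 1 (0.0579 and 0.0852), striatum WT replicate 2 (0.118 and 0.144) or striatum Setd1a+/- replicate 1 (0.121 and 0.104). C1qtnf9 lost it also without striatum Setd1a+/- replicate 2 (0.0751).

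The metallothionein genes Mt1 and Mt2, which encode small proteins that bind zinc and copper and are induced by these metals and by glucocorticoids, were both higher in striatal endothelial cells. The genes are neighbours on chromosome 8 and their promoters hold metal response elements. Since the genes moved together, the 250 bases ahead of the start that RefSeq gives for each are printed (RefSeq, GRCm38.p6, plus strand), in lower case with matches to the core of the element in capitals, searched on both strands as TGCGCNC or TGCACNC.
Mt2, chr8:94172368-94172617: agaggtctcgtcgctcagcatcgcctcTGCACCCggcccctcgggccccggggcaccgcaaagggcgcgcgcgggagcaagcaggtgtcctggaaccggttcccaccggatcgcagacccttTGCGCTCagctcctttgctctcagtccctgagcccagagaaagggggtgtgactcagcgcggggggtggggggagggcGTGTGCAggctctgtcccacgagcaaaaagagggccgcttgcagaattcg
Mt1, chr8:94178839-94179088: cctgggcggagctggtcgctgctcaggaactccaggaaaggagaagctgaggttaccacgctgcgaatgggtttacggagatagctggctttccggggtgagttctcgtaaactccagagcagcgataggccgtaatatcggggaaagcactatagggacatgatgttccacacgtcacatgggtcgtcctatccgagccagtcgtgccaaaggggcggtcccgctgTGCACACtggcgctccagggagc
The Mt2 window held 3 matches and the Mt1 window 1. By the gene coordinates below, the GENCODE start of Mt2 lies past the end of its window and that of Mt1 inside its window. Bases outside the windows were not searched, so these are not counts for the whole promoters. Of 32851 mouse promoter windows of this length, 21.4% held at least 1 match and 1.26% at least 3. A match describes the letters and not a site of binding.

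Mt2 (chr8:94172664-94173568) was at 268, 127, 54.8 and 118 CPM in PFC and 439, 631, 433 and 395 CPM in striatum. Mt1 (chr8:94179082-94180327) was at 797, 587, 225 and 514 CPM in PFC and 1389, 1710, 1224 and 1502 CPM in striatum. For both genes PFC WT replicate 1 was the highest and PFC Setd1a+/- replicate 1 the lowest of the cortical libraries, and all striatum libraries were above them. The differences were 3.62-fold for Mt2 (log2 FC -1.86, SE 0.30, FDR = 0.00339) and 2.90-fold for Mt1 (log2 FC -1.54, SE 0.27, FDR = 0.00474). Both were called with any 1 library left out, without either pair of PFC libraries, and in mural-poor and mural-rich barcodes. Against the glial cells of the same libraries, described below, the difference was larger in endothelial cells by a log2 value of -1.78 (SE 0.25, FDR = 2.2e-06) for Mt2 and of -1.30 (SE 0.20, FDR = 5.8e-06) for Mt1. Both were prone to free RNA by the largest estimate, at 57.3 and 115%, and at 8.28 and 15.9% with the astrocyte list left out.

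Other lists held few or no calls at an FC above 2. In the list of vasoactive genes 2 of 21 were called, both higher in striatum (4.25% over all genes) and prone to free RNA by the largest estimate. With the astrocyte list left out Adora2a was prone (68.5%) and Ednrb was not (18.0%). Adora2a, an adenosine receptor of medium spiny neurons and vessels, was at 27.5, 26.5, 25.5 and 24.1 CPM in PFC and 58.0, 45.4, 55.6 and 51.0 CPM in striatum (log2 FC -1.04, SE 0.18, FDR = 0.00464). Its level in the near-empty barcodes averaged 1.86 CPM in PFC and 166 CPM in striatum, so that free RNA could supply less of it in PFC than in striatum. Its log2 FC was just under the FC cutoff, at -0.97 to -0.99, without PFC Setd1a+/- replicate 1 or 2, striatum WT replicate 1 or striatum Setd1a+/- replicate 1. Its direction turned on subtraction of free RNA (log2 FC 7.63, and 0.53 with the astrocyte list left out). The largest estimate was above its whole striatal level, and counts below 0 were set to 0. The value of 7.63 follows from that floor and does not measure a tissue difference. Ednrb, an endothelin receptor that astrocytes also make, was at 4.51, 0, 9.01 and 2.41 CPM in PFC and 32.6, 18.4, 34.2 and 10.9 CPM in striatum (log2 FC -2.44, SE 0.50, FDR = 0.0117), and lost the call without PFC WT replicate 1 (FDR = 0.0703), striatum WT replicate 1 (FDR = 0.0545) or striatum Setd1a+/- replicate 1 (FDR = 0.0559).

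In the list of adhesion genes 1 of 16 was called, near the share of 4.25% over all genes. It was Alcam, an adhesion molecule of neurons and vessels (log2 FC -1.53, SE 0.36, FDR = 0.0239), prone to free RNA at 668% and at 91.3% with the astrocyte list left out, and the call was lost without PFC WT replicate 1 (FDR = 0.138), PFC Setd1a+/- replicate 1 (FDR = 0.0724) or striatum WT replicate 2 (FDR = 0.110). In the glycolysis list 3 of 16 were called, namely the lactate carrier Slc16a1 toward PFC (0.34% over all genes) and 2 enzymes toward striatum (4.25% over all genes), the lactate dehydrogenase subunit Ldhb (-1.49, FDR = 0.000913) and the phosphofructokinase Pfkp (-1.11, FDR = 0.0257). Ldhb kept its call with any 1 library left out, but both enzymes were prone to free RNA, Ldhb at 944% and Pfkp at 729%, and at 127 and 98.3% with the astrocyte list left out. Pfkp lost it without PFC WT replicate 1 (FDR = 0.104), PFC Setd1a+/- replicate 1 (FDR = 0.0942), striatum WT replicate 2 (FDR = 0.100) or striatum Setd1a+/- replicate 2 (log2 FC -0.92, FDR = 0.0338). Of 11 forebrain transcription factors tested 3 were called higher in striatum (4.25% over all genes), among them Meis2 (log2 FC -3.43, FDR = 0.000185) and Bcl11b (-3.66, FDR = 0.00234), both at 9.65 CPM or less in PFC. With 1 library left out the count of this list was 3 to 5. Meis2 and Bcl11b are known from striatal and other forebrain neurons, and free RNA of the striatum could supply 678% of the endothelial level of Meis2 and 1185% of that of Bcl11b by the largest estimate, and 92.7 and 161% with the astrocyte list left out. In the hormone and nuclear receptor list the only calls among 19 tested were the metallothioneins Mt1 and Mt2, both higher in striatum (4.25% over all genes). No receptor gene of that list was called.

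Lists with 0 calls at an FC above 2 were those of endothelial identity (32 tested, median log2 FC 0.20), barrier junctions (21, 0.19), Wnt and Norrin signaling (22, 0.32), VEGF, Tie and Notch signaling (27, 0.10), TGF-beta and BMP signaling (21, 0.26), basement membrane and matrix (24, 0.21), interferon response and antigen presentation (38, 0.24), immediate early genes (33, -0.21), heat shock (17, -0.12) and oxidative phosphorylation (28, -0.17). Over all genes tested, 4.59% were called at that cutoff in either direction. At an FC above 1.5, which 1.17% of all genes passed toward PFC, there were 3 such calls in the matrix list, 3 in the interferon list and 1 each among identity and junction genes. The interferon count was 0 without PFC WT replicate 1 or either striatum WT library and 5 without PFC Setd1a+/- replicate 2. With a replicate block within each tissue, the interferon list had 5 calls toward PFC and 5 toward striatum at an FC above 1.5. The identity list then had 1 and 2. At an FC above 2 each of these 2 lists then had 1 call, toward striatum. The matrix count was 1 without PFC WT replicate 1, PFC Setd1a+/- replicate 1, either striatum WT library or striatum Setd1a+/- replicate 2, and at most 4. The identity gene was Ptprb, a phosphatase that restrains the Tie receptor, at 1159, 961, 832 and 849 CPM in PFC and 616, 587, 641 and 554 CPM in striatum (log2 FC 0.63, SE 0.15, FDR = 0.0239). Ptprb missed the FDR without PFC WT replicate 1 (log2 FC 0.55, FDR = 0.117), striatum WT replicate 1 (0.61, FDR = 0.099) or striatum WT replicate 2 (0.59, FDR = 0.115). The single immediate early gene past an FC of 1.5 was Junb, a transcription factor of the AP-1 family, higher in striatum at 1195, 963, 983 and 663 CPM in PFC and 1675, 2415, 1324 and 1976 CPM in striatum (log2 FC -0.99, SE 0.19, FDR = 0.00766). Junb was prone to free RNA at 21.7% by the largest estimate and not with the astrocyte list left out (3.00%), and missed the FDR without striatum WT replicate 2 (log2 FC -0.88, FDR = 0.0521). Mitochondrial genes took 4.46 to 5.81% of UMIs in PFC and 5.27 to 6.81% in striatum (exact permutation test, two-sided p = 0.514), and ribosomal protein genes 7.73 to 8.24% and 7.02 to 7.62%, with no overlap (p = 0.0286, the smallest possible).

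Whether a tissue difference was larger or smaller in endothelial cells than in glia was tested with the difference in endothelial cells minus the mean difference in astrocytes, microglia, oligodendrocytes and oligodendrocyte progenitors of the same 8 libraries, with the library as a block. Of 10501 genes tested, 66 (0.629%) differed toward PFC in endothelial cells and 308 (2.93%) toward striatum. Leaving out PFC WT replicate 1 gave 202 toward striatum, and leaving microglia out of the reference gave 104 and 501. None of the barrier transporters passed this test, and their median value was 0.06. The values for Slc7a1, Slc16a1 and Tfrc were 0.52 (SE 0.34, FDR = 0.515), 0.77 (SE 0.27, FDR = 0.0866) and 0.20 (SE 0.25, FDR = 0.834), so that a difference from glia was not shown for them. Tfrc had a log2 FC of 1.11 in astrocytes (FDR = 0.0821) and of 1.72 in oligodendrocytes (FDR = 0.00763).

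Of the 33 genes called higher in PFC, 31 could be tested against glia and 2 passed toward PFC. For some of the others the comparison could not decide. Ndnf, Hmcn1 and Gbp9 had too few UMIs to be tested within any of the glial types alone. Their SE against glia were 1.11, 1704 and 3899. That they did not pass does not show a like difference in glia. Adgrl2, an adhesion receptor of the latrophilin family (chr3:148815583-148990555), was at 103, 107, 82.6 and 79.6 CPM in PFC and 38.7, 55.9, 45.7 and 29.1 CPM in striatum (log2 FC 1.07, SE 0.18, FDR = 0.00378), and the difference from glia was 2.25 (SE 0.43, FDR = 0.000253). Without striatum WT replicate 1 the log2 FC of Adgrl2 was 0.96 (FDR = 0.0217). Free RNA could supply up to 22.2% of Adgrl2 and 76.0% of Ildr2 by the largest estimate, and 5.24 and 18.9% with the astrocyte list left out, by which neither was prone. Ildr2, a membrane protein of the immunoglobulin superfamily (chr1:166254139-166316823), was at 43.6, 58.3, 23.3 and 19.3 CPM in PFC and 9.66, 9.87, 12.7 and 18.2 CPM in striatum (log2 FC 1.57, SE 0.33, FDR = 0.015), and the difference from glia was 2.24 (SE 0.42, FDR = 0.00023). The WT libraries were the higher ones of Ildr2 in PFC, and its call was lost without PFC WT replicate 1 (1.53, FDR = 0.0716) or without striatum WT replicate 1 (1.33, FDR = 0.0913) or 2 (1.37, FDR = 0.0893). Adora2a also passed toward PFC, with 2.46 (SE 0.50, FDR = 0.000807), although its difference within endothelial cells was toward the striatum.

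Of the 413 genes called higher in the striatum, 405 could be tested against glia and 140 passed toward striatum. In microglia 161 of the 210 tested were also called higher in the striatum (340 of 2996 over all genes). In astrocytes it was 46 of 227 (286 of 5090 over all genes). In oligodendrocytes it was 20 of 260 (65 of 6918) and in oligodendrocyte progenitors 6 of 340 (8 of 7612). Of the 140, the 5 with the smallest p, all prone to free RNA, were genes of glia and neurons. Ckb, the brain creatine kinase, was at 86.2, 133, 72.1 and 91.7 CPM in PFC and 352, 325, 277 and 324 CPM in striatum (log2 FC -1.80, SE 0.18, FDR = 0.000309), with a difference from glia of -2.06 (FDR = 4.2e-11) and log2 FC of 0.69 in astrocytes (FDR = 0.0652) and 0.41 in oligodendrocytes (FDR = 0.195). Gpr37l1, a receptor of astrocytes, was at 0 to 6.01 CPM in PFC and 20.03 to 65.0 CPM in striatum, with a difference from glia of -3.64 (FDR = 1.4e-10). Gria2, a glutamate receptor subunit, was at 9.65 to 27.8 and 63.9 to 182 CPM (-2.69, FDR = 5.2e-09), the adhesion molecule Ncam1 at 3.76 to 10.6 and 31.0 to 52.6 CPM (-2.61, FDR = 6.1e-08), and Ptprz1, a phosphatase of glial progenitors, at 7.24 to 21.0 and 22.4 to 67.4 CPM (-2.88, FDR = 7.5e-08). The tissue call of Ptprz1 in endothelial cells was lost without PFC Setd1a+/- replicate 1 (FDR = 0.0754) or striatum WT replicate 1 (FDR = 0.0957). All 5 genes had higher levels in every striatum library than in any PFC library of endothelial cells.

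Setd1a itself was sparse, with 6 to 29 UMIs in a library, at 8.52, 13.3, 6.76 and 14.5 CPM in PFC and 14.5, 19.1, 7.71 and 12.7 CPM in striatum (log2 FC -0.48, SE 0.35, FDR = 0.467). Its 3' tags lie outside the deleted bases and do not check the genotype. The tissue difference was not detectably different between genotypes for any of 9709 genes (edgeR, 0 called (0%), 205 at an unadjusted p under 0.05, with 2 libraries per group). DESeq2 also called 0 of 17737 genes, with 37 at an unadjusted p under 0.05. The WT libraries alone gave 16 and 168 calls toward PFC and striatum, and the Setd1a+/- libraries alone gave 0 and 5 (177 and 594 genes at an unadjusted p under 0.05). For Stra6 the log2 FC was -2.86 in WT and -1.33 in Setd1a+/- libraries, for Ndnf 2.00 and 1.23, and for Slc7a1 1.08 and 1.12.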

How the data were processed

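Single-cell RNA-seq libraries of PFC and striatum were read from 4 WT and 4 Setd1a+/- libraries, 2 of each genotype per tissue. The deposited matrices hold raw UMI counts of 31053 genes over all barcodes, made by the authors with Cell Ranger 3.0.2 against mm10, per the labels. The deposited cell tables give the authors' cell types, assigned with Seurat 3.2.0 after their own filters on genes and mitochondrial share, and were used unchanged. No doublet caller was run here. Each barcode was joined to its library by the library label of the cell tables. The cells annotated as endothelial were summed per library. Library totals were 15154268 to 26277553 UMIs over all barcodes. Each UMI is 1 molecule, so depth limits sparse genes to counting error, and 3 UMIs served as the floor for genes at 0.

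Summed counts were tested with edgeR 4.0.16 (R 4.3.3) by the quasi-likelihood test with TMM factors, genotype and tissue as terms, filterByExpr at a minimum count of 10, and Benjamini-Hochberg adjustment over all genes tested (FDR). Genes were called at FDR under 0.05 and FC above 2. The comparison with glia used the sums of 5 cell types with the library as a block. Single values were compared with exact permutation tests over libraries in scipy 1.17.1 (Python 3.11.15, numpy 2.4.6, pandas 2.3.3). The main tissue fit and the main comparison with glia were tested on simulated counts. The other fits, the interaction of tissue and genotype among them, were not. Each library is a pool of 2 mice per the labels. Whether PFC and striatum came from the same mice is not given in the sources used here, so p-values measure the spread between these libraries. Replicates of a group differed by more than sampling noise.

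Genes were named by a rule. It took, in each direction, up to 10 called genes of the largest log2 FC without overlap of libraries, with at least 50 CPM in the higher tissue and not prone to free RNA, up to 4 called members per pathway list, 6 fixed genes (Cldn5, Flt1, Pecam1, Cdh5, Ly6c1 and Setd1a), up to 5 called genes in each direction against glia, and the member of highest CPM per list of another cell type. Unnamed gene models were only counted, and 3 of the genes that the rule took are not reported here. The 31 gene lists, the rule and the groups were chosen with earlier results of these data known. Coordinates are GRCm38 in GENCODE vM21, in which 30934 of the gene identifiers were found, and promoters were taken from RefSeq.

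Alternatives were DESeq2 1.42.0, other scalings and filters, replicate blocks, each library left out, subsets of libraries and cells, and subtraction of free RNA. The mural split and the free RNA estimate without the astrocyte list were chosen after seeing the data. The deviations of replicate 1 libraries from their group means correlated within tissues (0.356 in PFC and 0.331 in striatum), where the methods pair 1 WT and 1 Setd1a+/- library per replicate, and at -0.0035 to 0.184 across tissues, so the replicate number was not taken to pair tissues.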

Additional observations from a re-analysis of the deposited data

Results flagged for a closer look

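Among 96 groups of 4 libraries examined, 6 held a library whose gap to the nearest of the others, as a share of the group's range, was above the 95% critical value of Dixon's test, and chance alone does so in about 1 of 20 groups. In PFC these were WT replicate 1 for the median UMIs per endothelial cell (2756 against 2124 to 2197 in the others) and for Hmcn1 (116 against 65.1 to 72.9 CPM), WT replicate 2 for Bche (90.1 against 42.6 to 50.7 CPM) and for Gria2 (27.8 against 9.65 to 12.5 CPM), and Setd1a+/- replicate 2 for Gpr37l1 (0 against 5.01 to 6.01 CPM). In striatum it was Setd1a+/- replicate 2 for Pecam1 (362 against 388 to 391 CPM).

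The tissue difference of 8 named genes differed between endothelial cells and the mean of 4 glial types in edgeR with the library as a block. It was more toward PFC in endothelial cells for Adora2a (2.46, FDR = 0.000807), Ildr2 (2.24, FDR = 0.00023) and Adgrl2 (2.25, FDR = 0.000253). It was more toward striatum for Ckb (-2.06, FDR = 4.2e-11), Gpr37l1 (-3.64, FDR = 1.4e-10), Gria2 (-2.69, FDR = 5.2e-09), Ncam1 (-2.61, FDR = 6.1e-08) and Ptprz1 (-2.88, FDR = 7.5e-08). All 8 were prone to free RNA by the largest estimate, and with the astrocyte list left out all but Ildr2 and Adgrl2 were (18.9 and 5.24%), and the part of free RNA in these differences was not tested.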

How the results depend on the processing

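The counts of genes called higher in PFC and in striatum (33 and 413) moved little with DESeq2 size factors, library size alone, no genotype term, or mitochondrial and ribosomal protein genes left out. Pairs below give PFC and then striatum. They were 103 and 999 with no low-count filter, 114 and 474 at an FC above 1.5, and 34 and 549 with DESeq2. Leaving out 1 library gave 15 to 61 and 199 to 727. Without both PFC libraries of replicate 1 they were 18 and 66, and without both of replicate 2 they were 93 and 1095. They were 16 and 168 in WT libraries and 0 and 5 in Setd1a+/- libraries, with 2 libraries per tissue in each. In smaller sets of cells they were 2 and 11 in cells without UMIs of other types (910 genes tested), 8 and 60 with 157 cells per library, 11 and 78 with cells thinned to 800 UMIs, 53 and 321 in mural-poor and 10 and 90 in mural-rich barcodes. Free RNA subtraction gave 291 and 24, and 0 and 1 with the astrocyte list left out, with 16 and 77 of the 413 genes still tested. Apart from the number of genes tested, the cause of these changes was not tested.

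With the replicate number as a replicate block over both tissues the counts were 40 and 505, and with a replicate block within each tissue 53 and 607. Against glia, the counts of 66 and 308 became 102 and 341 at an FC above 1.5, 104 and 501 without microglia, 45 to 82 and 202 to 305 with 1 library left out (202 without PFC WT replicate 1), and 46 and 242 with a replicate block and no library block. The tissue difference was not called different between genotypes for any gene under the alternatives run, the replicate block among them (0 genes). The difference in endothelial share was 3.68 points, 1.37 to 5.85 with 1 library left out, and -6.89 among non-neuronal cells. The difference in median UMIs was -52.4, -202 to 25.6 with 1 library left out (0.875 without PFC Setd1a+/- replicate 1, 8.21 without PFC Setd1a+/- replicate 2 and 25.6 without striatum Setd1a+/- replicate 1), and 87.8 with means.

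Over the alternatives for the log2 FC of named genes, 1525 values kept direction and side of the threshold, 220 lost and 53 gained a call, and 43 changed sign. Sign changed on subtraction of free RNA for Adora2a (7.63, where the estimate was above the striatal level), Flt1 (-0.38), Pecam1 (-0.52), Cdh5 (-0.18), Rgs5 (-0.41), Cd24a (1.40), S1pr1 (-0.42), Abcg2 (-0.022), Slc2a1 (-0.49), Kdr (-0.058) and Ptprb (-0.016), and with the astrocyte list left out for Adora2a (0.53), Pecam1 (-0.02) and Slc2a1 (-0.016). Without both PFC libraries of replicate 1 it changed for Setd1a (0.039, against -0.80 without both of replicate 2), Mal (-0.24), Slc2a1 (-0.040, against 0.28) and Bsg (0.055, against -2.26), and without both of replicate 2 for S1pr1 (-0.17, against 0.45 without both of replicate 1) and Hbb-bs (0.11). It changed in Setd1a+/- libraries for Pecam1 (-0.043) and Hbb-bs (0.34), in WT libraries for Mal (-0.044) and Slc2a1 (-0.15), in mural-rich barcodes for Pecam1 (-0.037), Mal (-0.15), Slc2a1 (-0.015) and Hbb-bs (0.26), in cells without UMIs of other types for Cdh5 (-0.057) and Hbb-bs (0.63), in thinned cells for Mal (-0.025), and for Hbb-bs with DESeq2 (0.0075) and no low-count filter (0.0034). With 1 library left out Ly6c1 ran from -0.37 to 0.0064, Mal from -0.21 to 0.35, Hbb-bs from -0.53 to 0.38 and Slc2a1 from -0.065 to 0.23.

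Depth limits Setd1a and other genes of few UMIs, for which a difference was not detectable. Tissue, digestion and library preparation cannot be told apart, and barcodes with both endothelial and mural UMIs remained in the main counts.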
